A study of Homo sapiens with 18 samples.

Results

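The genes described here are 28 genes of cholesterol synthesis, uptake and control, chosen by name from the 60252 rows of the count table. They comprise 8 enzymes of the mevalonate route, 12 enzymes of the sterol route, 4 genes that sense or control sterols, 3 genes of transport, uptake control and esterification, and RUSC1-AS1, an antisense RNA gene that overlaps FDPS. Their identifiers were matched to symbols. Of the 28, 26 passed the filter on low counts and were among the 21326 genes tested. EBP had 1 count and NSDHL 0 counts over all libraries. The list does not hold every enzyme of the pathway.

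All samples were MCF-10A cells, a non-tumorigenic human mammary epithelial line, that stably carried a retroviral construct and had grown for 8 days in Matrigel, a basement membrane gel in which these cells form 3-dimensional structures. The Control group carried the empty vector PWZL. The other 5 groups, named SRSF2-OE, SRSF4-OE, SRSF6-OE, SRSF9-OE and TRA2B-OE, each carried the coding sequence of the gene in their name. SRSF proteins and TRA2B bind RNA and regulate splicing. The 18 samples came from 14 libraries, since 4 libraries had been deposited as a pair of samples each and were summed: SRSF2-OE and SRSF9-OE had 3 libraries each, and each of the other 4 groups had 2 (replicates 1 and 2 summed, called replicate 1-2, then replicate 3).

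Cholesterol is built from acetyl-CoA through mevalonate to farnesyl diphosphate, which is condensed to squalene, closed to a sterol ring and trimmed to cholesterol. When sterols in the endoplasmic reticulum are low, SCAP escorts the transcription factor SREBP2, encoded by SREBF2, to the Golgi, where it is cut and released to switch on most genes of the route. When sterols are plentiful, INSIG1 and INSIG2 hold SCAP back. In epithelial cells the same route also supplies farnesyl and geranylgeranyl groups that anchor small GTPases to membranes.

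Library totals ranged from 42959069 to 121601376 counts. The introduced gene was checked by its own CPM, the count scaled to library size after TMM normalisation. SRSF9 stood at 359, 629 and 839 CPM in SRSF9-OE against 91.6 to 117 elsewhere, and SRSF4 at 187 and 168 CPM in SRSF4-OE against 71.4 to 106 elsewhere. SRSF2 reached 214, 396 and 310 CPM in SRSF2-OE against 176 to 272 elsewhere, so SRSF2-OE replicate 1 lay inside the range of the other groups. TRA2B reached 201 and 147 CPM in TRA2B-OE against 105 to 168 elsewhere, so TRA2B-OE replicate 3 lay inside it too. SRSF6 stood at 417 and 283 CPM in the libraries labelled SRSF6-OE against 237 to 448 elsewhere, so its counts do not bear out that label, and these 2 libraries are called the libraries labelled SRSF6-OE throughout. The epithelial markers KRT5, KRT14, TP63, CDH1, EPCAM and LAMB3 summed to 10900 to 26800 CPM in every library. KRT5 alone ranged from 7080 to 20000 CPM, whereas EPCAM was low, at 0.54 to 11.4 CPM. PTPRC, CD3E, VWF, CDH5, ADIPOQ, COL1A2, LUM, PDGFRA and PGR were under 1 CPM in every library. Other markers in the same lists were detected. The 5 fibroblast markers summed to 262 to 549 CPM in Control and 159 to 432 CPM in the overexpression libraries through COL1A1 (44 to 278 CPM) and DCN (6.3 to 413 CPM, highest in Control replicate 1-2). FABP4 and PLIN1 of adipocytes reached 15 and 3.04 CPM, TEK of endothelium 9.09, ESR1 of hormone-responsive luminal cells 2.54 and CD68 of leukocytes 1.22. The part of these genes in the cholesterol results was not tested.

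Promoter windows are shown because most of the genes stood higher than Control together. RefSeq windows of 300 bases around the annotated start (GRCh38.p14) were found for 25 of the 28 genes, in 34 windows. Windows are printed for FDPS, which had the largest log2 difference from Control in TRA2B-OE (2.10), for MVD, DHCR7 and INSIG1, with log2 differences there of 2.04, 2.01 and 2.02, and for SREBF2, which encodes the controlling factor. DHCR7 also had a window at chr11:71448994-71449293 (minus strand), which held none of the short sequences counted below and is not printed. FDPS lies at chr1:155308616-155308915 (plus strand), MVD at chr16:88663042-88663341 (minus strand), DHCR7 at chr11:71448344-71448643 (minus strand), INSIG1 at chr7:155297628-155297927 (plus strand) and SREBF2 at chr22:41832855-41833154 (plus strand). Each is written 5′ to 3′ on the strand of its gene. Capitals mark CCAAT, the site of the factor NF-Y, on either strand (read as ATTGG on the reverse), and TCACNCCAC, a form of the sterol regulatory element bound by SREBP.
FDPS: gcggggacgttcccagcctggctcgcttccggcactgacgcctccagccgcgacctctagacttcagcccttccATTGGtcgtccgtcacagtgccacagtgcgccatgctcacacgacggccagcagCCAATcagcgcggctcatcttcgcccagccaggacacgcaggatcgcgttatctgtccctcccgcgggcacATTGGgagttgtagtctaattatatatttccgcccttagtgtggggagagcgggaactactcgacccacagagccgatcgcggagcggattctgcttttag
MVD: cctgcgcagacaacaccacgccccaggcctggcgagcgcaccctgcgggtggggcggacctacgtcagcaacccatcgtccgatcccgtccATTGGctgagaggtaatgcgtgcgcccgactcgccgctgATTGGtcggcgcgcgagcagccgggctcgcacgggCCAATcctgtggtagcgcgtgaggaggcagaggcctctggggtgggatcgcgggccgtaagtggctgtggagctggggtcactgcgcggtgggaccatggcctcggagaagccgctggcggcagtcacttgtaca
DHCR7: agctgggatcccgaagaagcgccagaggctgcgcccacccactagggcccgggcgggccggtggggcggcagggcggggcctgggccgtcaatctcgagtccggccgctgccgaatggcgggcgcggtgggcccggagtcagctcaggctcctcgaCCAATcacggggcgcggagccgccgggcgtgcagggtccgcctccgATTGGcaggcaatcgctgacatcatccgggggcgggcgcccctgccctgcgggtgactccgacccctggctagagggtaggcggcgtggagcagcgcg
INSIG1: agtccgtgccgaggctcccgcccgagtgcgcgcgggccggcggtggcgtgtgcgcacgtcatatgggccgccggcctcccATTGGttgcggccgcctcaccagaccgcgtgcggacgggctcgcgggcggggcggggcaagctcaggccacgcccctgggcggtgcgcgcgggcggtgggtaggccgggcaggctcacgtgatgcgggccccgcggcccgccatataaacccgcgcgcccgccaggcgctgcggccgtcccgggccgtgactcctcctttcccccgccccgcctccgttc
SREBF2: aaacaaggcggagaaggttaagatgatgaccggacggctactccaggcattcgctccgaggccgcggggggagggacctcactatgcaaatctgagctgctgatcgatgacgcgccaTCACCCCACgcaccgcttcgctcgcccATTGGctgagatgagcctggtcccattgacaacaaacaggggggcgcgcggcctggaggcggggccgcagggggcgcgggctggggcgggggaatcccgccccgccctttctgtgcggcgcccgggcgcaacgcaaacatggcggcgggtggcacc
CCAAT was present on either strand in 22 of the 34 windows (64.7%), against 34.6% of all 35116 promoter windows of the same length. The GC box GGGCGG was present in 30 of 34 (88.2%), against 45% of all windows. TCACNCCAC was found in 1 of 34 windows (2.94%), that of SREBF2, against 1.13% of all, and the overlapping form CACCCCAC in 1 of 34 against 2.79%. Some genes had windows that overlap one another, such as SC5D, INSIG2 and HMGCS1, so the same bases can count more than once. Counted by gene, 20 of 25 had CCAAT and 23 of 25 had GGGCGG in a window. The comparison windows were not limited to genes expressed in these cells. These matches describe letters in the window and were not tested as binding sites.

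Against the empty vector, most cholesterol genes stood higher in every overexpression group. Of 26 genes tested, the fitted log2 fold change was above 0 for 21 in SRSF2-OE, 21 in SRSF4-OE, 22 in the libraries labelled SRSF6-OE, 19 in SRSF9-OE and 21 in TRA2B-OE. The median log2 fold change of the 26 was 0.82, 0.70, 1.02, 0.48 and 0.93 in the same order, beside 0.04, -0.04, -0.03, 0.00 and -0.00 over all genes tested. For 14 of the 26 genes all 12 overexpression libraries lay above both Control libraries, where 4.31% of all genes tested did so. Group by group, all libraries lay above both Control libraries for 17 cholesterol genes in SRSF2-OE (16.7% of all genes), 18 in SRSF4-OE (25.3%), 17 in the libraries labelled SRSF6-OE (22.8%), 16 in SRSF9-OE (16.5%) and 18 in TRA2B-OE (18.3%). They lay below for 2, 3, 2, 1 and 2 (17.5%, 27.2%, 24.4%, 17.6% and 18.2% of all genes). The 14 genes above Control in every library were ACAT2, HMGCS1, MVK, MVD, IDI1, FDPS, FDFT1, SQLE, CYP51A1, MSMO1, SC5D, DHCR7, INSIG1 and RUSC1-AS1. RUSC1-AS1 overlaps FDPS, can share its reads and is counted with the cholesterol genes here and below. No cholesterol gene had all 12 below both Control libraries, where 3.87% of all genes did so. All 5 comparisons use the same 2 Control libraries, so their agreement is not independent.

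**Figure D1:**
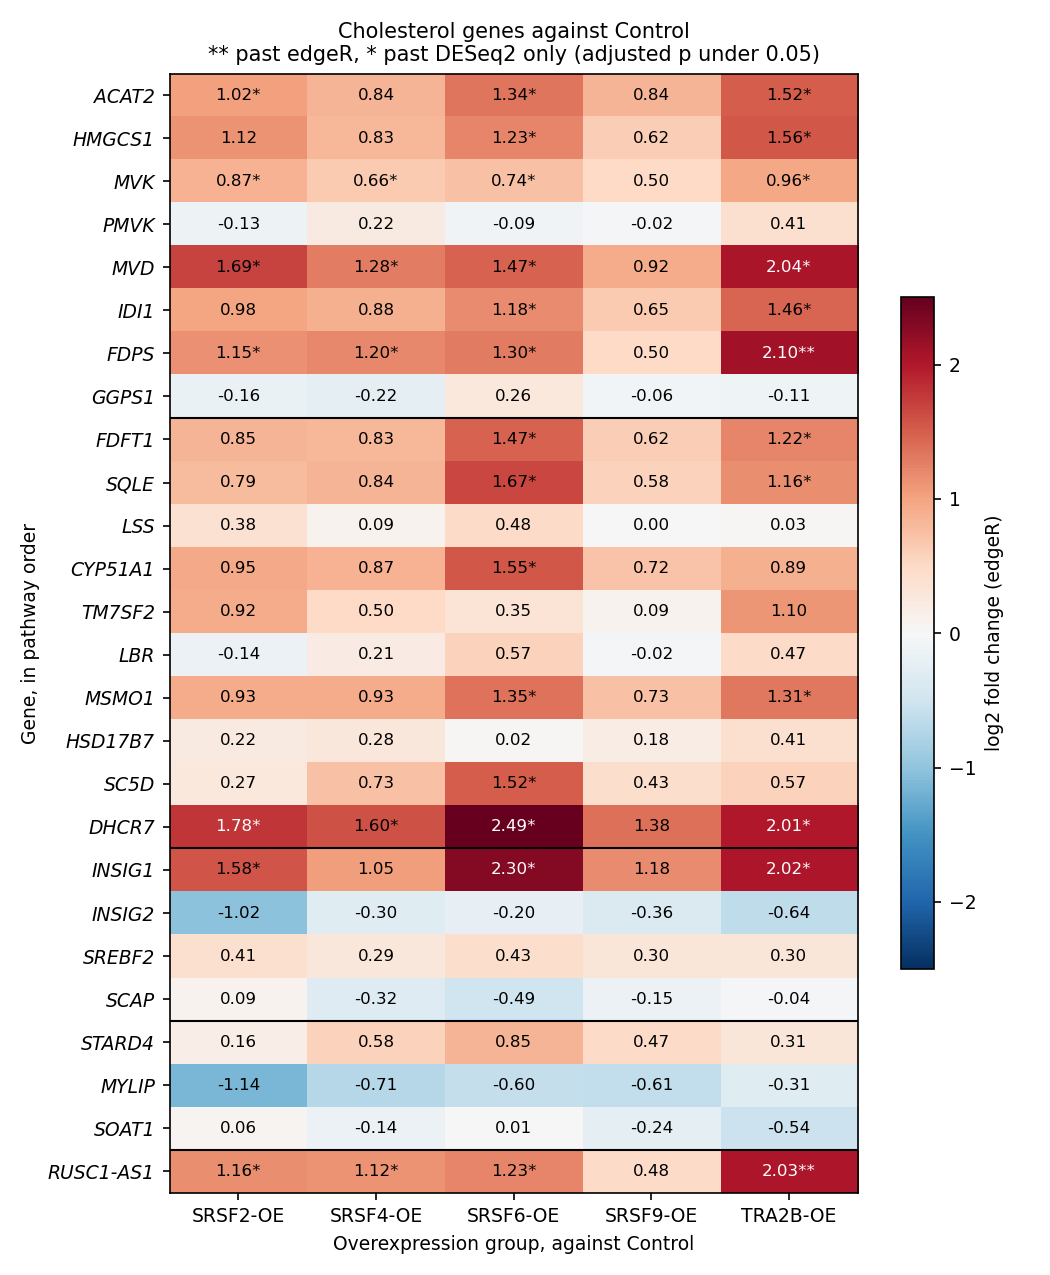
Fitted log2 fold change (edgeR) of the 26 tested genes in pathway order (rows) for each overexpression group against Control (columns). Lines separate mevalonate enzymes, sterol enzymes, control genes, transport and esterification genes, and RUSC1-AS1. Red cells dominate the enzyme rows, DHCR7 in the libraries labelled SRSF6-OE is the deepest at 2.49, and INSIG2 and MYLIP are blue in all 5 columns.

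Few single genes passed the test across all genes. In edgeR's quasi-likelihood fit p was adjusted by Benjamini and Hochberg over 21326 genes. There, 2 genes of the list passed an adjusted p of 0.05 in TRA2B-OE, FDPS and RUSC1-AS1. They were the 2 genes called in that comparison (0.00938% of all genes). Their exons overlap and they can share reads, so the 2 calls may be 1 signal. edgeR called 0 cholesterol genes in SRSF2-OE, SRSF4-OE, the libraries labelled SRSF6-OE and SRSF9-OE, where 0%, 0%, 0.00469% and 0% of all genes were called. At an unadjusted p under 0.05 in the edgeR fit, 15 cholesterol genes were higher in SRSF2-OE (7.02% of all genes), 12 in SRSF4-OE (7.05%), 17 in the libraries labelled SRSF6-OE (10.4%), 8 in SRSF9-OE (2.54%) and 15 in TRA2B-OE (6.62%). INSIG2 and MYLIP were lower at that level in SRSF2-OE. DESeq2 called 7, 5, 14, 0 and 12 cholesterol genes in the same order of groups, all higher, where it called 1.58%, 1.56%, 4.2%, 0.0563% and 1.44% of all genes higher. limma-voom called 0, 0, 2, 0 and 4, where it called 0%, 0%, 0.131%, 0% and 0.159% of all genes higher. For the libraries labelled SRSF6-OE, edgeR called 8 cholesterol genes without TRA2B-OE replicate 1-2 (0.216% of all genes tested) and 5 without TRA2B-OE replicate 3 (0.153%). With SRSF2-OE replicate 1 and TRA2B-OE replicate 3 both left out, edgeR called 2 in SRSF4-OE (0.396% of all genes tested), 3 in the libraries labelled SRSF6-OE (0.216%) and 2 in TRA2B-OE (0.00899%). Because nothing in the labels says that libraries came from separate cultures, each p measures the spread between these libraries.

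The first steps of the mevalonate route join acetyl units. ACAT2, the cytosolic thiolase that makes acetoacetyl-CoA, was at 23.3 and 39.6 CPM in Control, 71.8, 61.6 and 68.6 in SRSF2-OE, 48.9 and 62.2 in SRSF4-OE, 71 and 86.3 in the libraries labelled SRSF6-OE, 51.2, 74.6 and 53.0 in SRSF9-OE, and 104 and 69.7 in TRA2B-OE. HMGCS1, which adds the next acetyl unit, was at 53.7 and 54.2 CPM in Control and at 108, 94.8 and 130 in SRSF2-OE, 86.0 and 104 in SRSF4-OE, 113 and 138 in the libraries labelled SRSF6-OE, 70.9, 91.2 and 73.2 in SRSF9-OE, and 234 and 92.9 in TRA2B-OE. Both genes were above both Control libraries everywhere, and TRA2B-OE replicate 1-2 was the highest library for each. The edgeR log2 fold change of HMGCS1 in TRA2B-OE was 1.56 ± 0.35 (SE, adjusted p = 0.172) and moved to 0.71 without TRA2B-OE replicate 1-2. ACAT2 also overlaps TCP1 and SOD2 on the opposite strand, and its counts are uncertain if counting ignored strand.

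MVK, PMVK and MVD phosphorylate mevalonate and then decarboxylate it to isopentenyl diphosphate. MVK was at 20.2 and 32.2 CPM in Control, 57.3, 55.5 and 51.3 in SRSF2-OE, 33.9 and 48.4 in SRSF4-OE, 38.9 and 46.9 in the libraries labelled SRSF6-OE, 36.9, 42.4 and 47.8 in SRSF9-OE, and 43.8 and 56.3 in TRA2B-OE. MVD was at 15.5 and 27.9 CPM in Control, 65.1, 78.9 and 74.0 in SRSF2-OE, 46.5 and 57.8 in SRSF4-OE, 56.6 and 61.9 in the libraries labelled SRSF6-OE, 34.5, 41.2 and 52.5 in SRSF9-OE, and 107 and 66.2 in TRA2B-OE. For both enzymes the groups did not overlap with Control, although SRSF4-OE replicate 1-2 stood only just above Control replicate 3 for MVK. MVK exons overlap those of MMAB on the opposite strand, and MVK counts are uncertain if counting ignored strand. MVD had a group mean of 21.7 ± 8.75 CPM in Control (SD, n = 2) and 72.7 ± 7.01 CPM in SRSF2-OE (SD, n = 3), and its fitted fold was 3.22 in SRSF2-OE and 4.11 in TRA2B-OE. DESeq2 called MVK and MVD higher in SRSF2-OE, SRSF4-OE, the libraries labelled SRSF6-OE and TRA2B-OE. PMVK, the kinase between them, differed little, with log2 fold changes of -0.13 to 0.41 over the 5 groups, and no tool called it.

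IDI1 isomerises isopentenyl diphosphate so that the units can be joined. Its level was 36.8 and 45 CPM in Control, 76.6, 73.0 and 93.9 in SRSF2-OE, 70.3 and 80.1 in SRSF4-OE, 75.0 and 111 in the libraries labelled SRSF6-OE, 52.0, 81.0 and 61.0 in SRSF9-OE, and 148 and 76.2 in TRA2B-OE. All 12 overexpression libraries were above Control, with TRA2B-OE replicate 1-2 highest and SRSF9-OE replicate 1 lowest. GGPS1, which makes geranylgeranyl diphosphate for protein prenylation, did not share the pattern. It was at 80.0 and 59.3 CPM in Control, 59.7, 71.4 and 58.4 in SRSF2-OE, 57.9 and 61.9 in SRSF4-OE, 67.2 and 101 in the libraries labelled SRSF6-OE, 57.9, 79.2 and 66.6 in SRSF9-OE, and 67.1 and 62.0 in TRA2B-OE. GGPS1 overlapped Control in every group, with SRSF6 replicate 3 above both Control libraries and SRSF2-OE replicate 3, SRSF4-OE replicate 1-2 and SRSF9-OE replicate 1 just below them. Its fitted differences ran from -0.22 to 0.26 on the log2 scale and their sign changed with the libraries used. GGPS1 exons overlap those of TBCE on the same strand and ARID4B on the opposite strand, so its counts are uncertain.

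FDPS, farnesyl diphosphate synthase, feeds squalene synthesis and protein farnesylation and is the target of nitrogen-containing bisphosphonate drugs. FDPS was at 106 and 140 CPM in Control, 330, 284 and 310 in SRSF2-OE, 232 and 338 in SRSF4-OE, 236 and 378 in the libraries labelled SRSF6-OE, 181, 213 and 193 in SRSF9-OE, and 543 and 490 in TRA2B-OE. Control was lowest, SRSF9-OE next, SRSF2-OE, SRSF4-OE and the libraries labelled SRSF6-OE overlapped one another, and both TRA2B-OE libraries stood above all others. The group mean was 123 ± 24.1 CPM in Control (SD, n = 2) and 517 ± 37 CPM in TRA2B-OE (SD, n = 2). FDPS rose in TRA2B-OE by a log2 fold change of 2.10 ± 0.21 (SE, edgeR, adjusted p = 0.013), a fold of 4.29. Elsewhere the edgeR log2 fold change was 1.15 ± 0.20 in SRSF2-OE (adjusted p = 0.127), 1.20 ± 0.20 in SRSF4-OE (0.212), 1.30 ± 0.20 in the libraries labelled SRSF6-OE (0.091) and 0.50 ± 0.20 in SRSF9-OE (0.870). The TRA2B-OE call for FDPS and RUSC1-AS1 ended without Control replicate 1-2 (adjusted p = 0.383), Control replicate 3 (0.0844), SRSF9-OE replicate 3 (0.0521) or TRA2B-OE replicate 1-2 (0.0729). Without TRA2B-OE replicate 3, whose TRA2B level was inside the range of other groups, the FDPS difference was 2.41 and 6 cholesterol genes were called, among 0.0629% of all genes tested: ACAT2, FDPS, HMGCS1, IDI1, MVD and RUSC1-AS1.

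**Figure D2:**
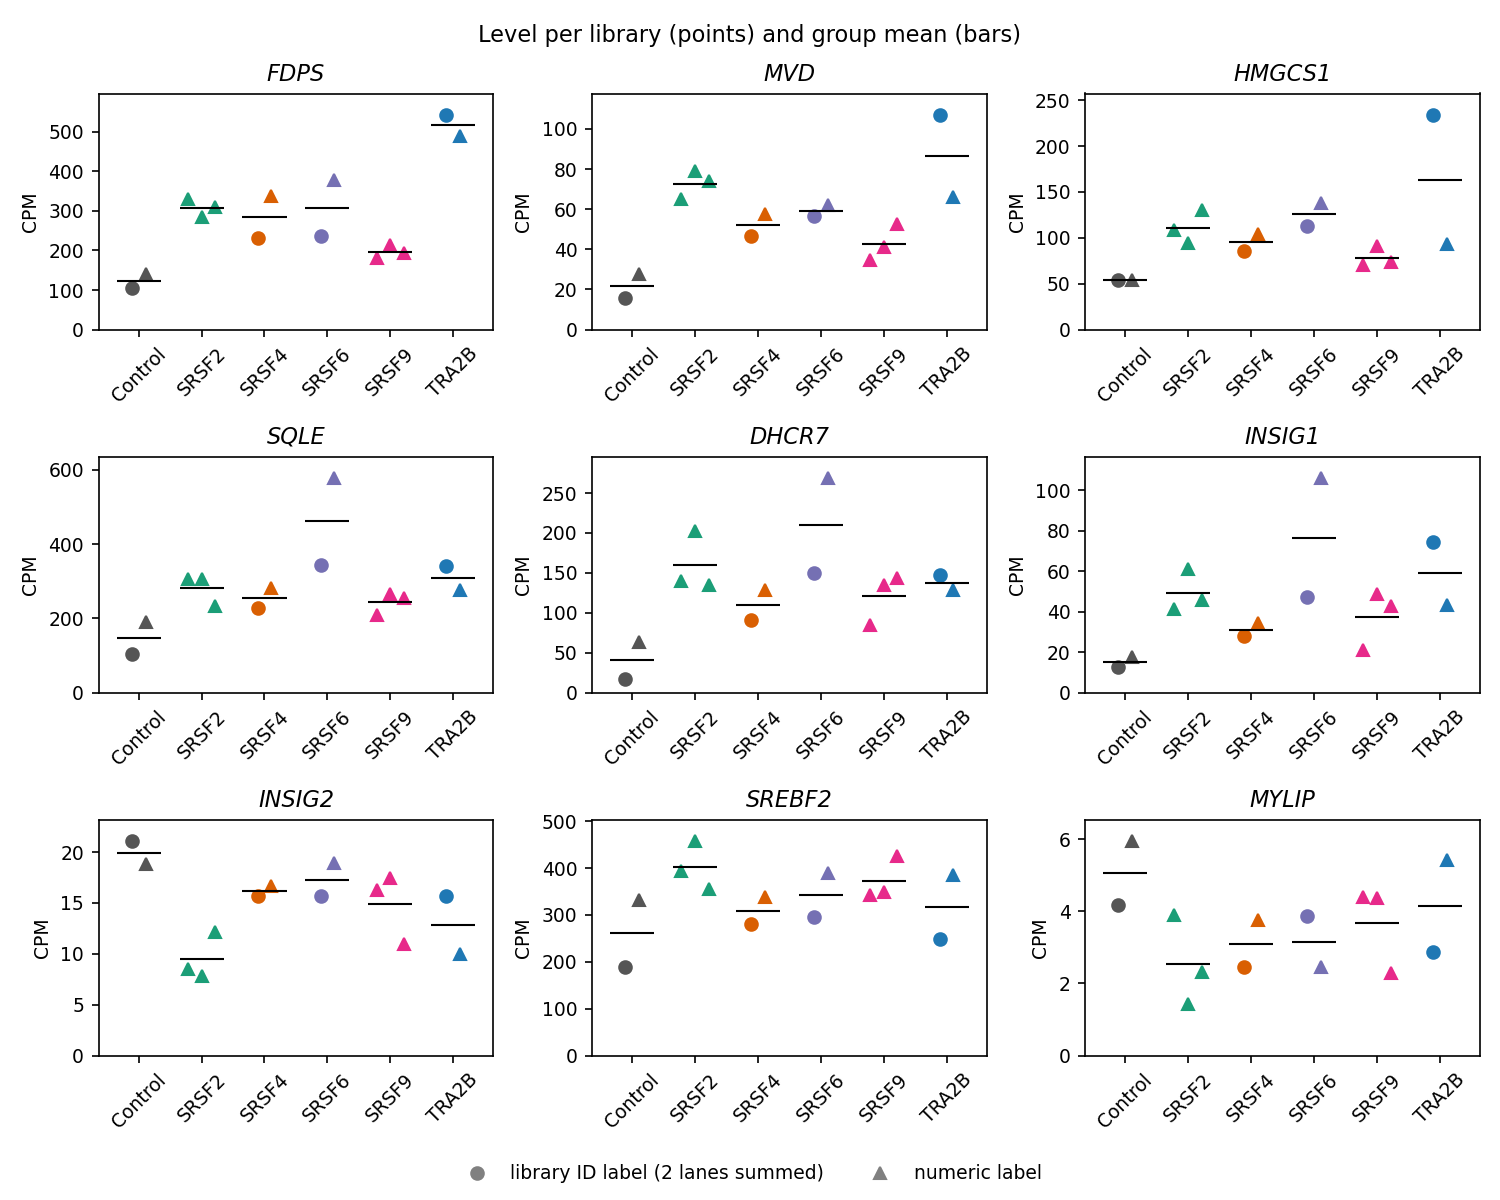
CPM (vertical axes, from 0) of 9 genes in each of the 14 libraries, by group along the horizontal axis. Circles are libraries labelled with a library ID, triangles those with a numeric label, and bars are group means. FDPS in TRA2B-OE stands at 543 and 490 CPM above all other libraries, SQLE, DHCR7 and INSIG1 are highest in SRSF6 replicate 3, and INSIG2 is lowest in SRSF2-OE.

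RUSC1-AS1 is transcribed against FDPS and RUSC1, and its exons overlap theirs. Its level was 62.5 and 72.5 CPM in Control, 179, 149 and 179 in SRSF2-OE, 120 and 178 in SRSF4-OE, 128 and 195 in the libraries labelled SRSF6-OE, 99.5, 111 and 105 in SRSF9-OE, and 279 and 267 in TRA2B-OE. The order of the groups was that of FDPS. RUSC1-AS1 rose in TRA2B-OE by a log2 fold change of 2.03 ± 0.19 (SE, edgeR, adjusted p = 0.013). The ratio of RUSC1-AS1 to FDPS counts lay between 0.514 and 0.589 in all 14 libraries. No source used here gives the strand setting of the counting, so reads of FDPS and of RUSC1-AS1 cannot be told apart and the pair is best read as 1 signal. RUSC1, the protein-coding neighbour that RUSC1-AS1 also overlaps, was at 34.6 and 36.2 CPM in Control and 39.7 and 66.9 CPM in TRA2B-OE.

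FDPS stood out from the other enzymes in TRA2B-OE. The log2 CPM of FDPS minus the mean log2 CPM of the other 17 tested enzymes was 2.76 and 2.96 in TRA2B-OE, against 1.69 to 2.40 in the other 12 libraries. In direct comparisons DESeq2 called FDPS and RUSC1-AS1 higher in TRA2B-OE than in SRSF2-OE (0.181% of all genes called in either direction), SRSF4-OE (0.343%), the libraries labelled SRSF6-OE (2.16%) and SRSF9-OE (0.254%). edgeR called neither in these comparisons. The FDPS difference between SRSF9-OE and TRA2B-OE was -1.61 ± 0.20 on the log2 scale (SE, edgeR adjusted p = 0.092). Between the libraries labelled SRSF6-OE and TRA2B-OE it was -0.80 ± 0.20 (edgeR adjusted p = 0.291).

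**Figure D3:**
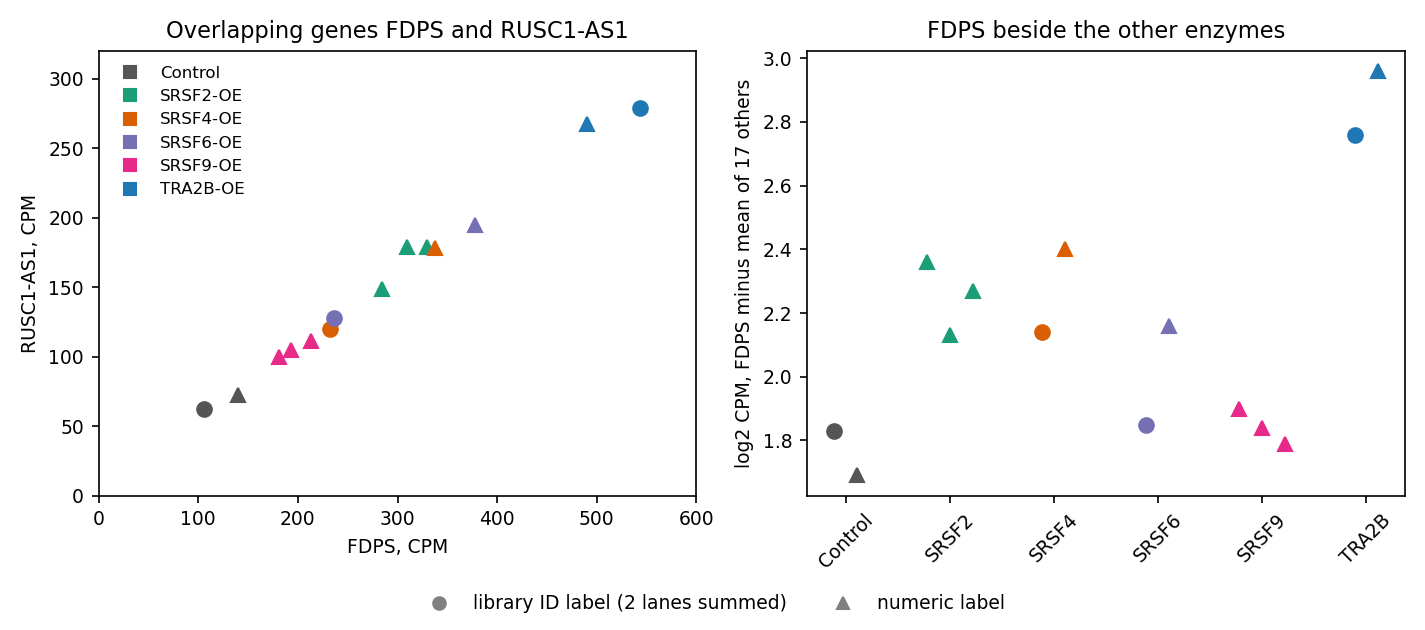
Left, RUSC1-AS1 CPM against FDPS CPM, 1 point per library, coloured by group. Right, log2 CPM of FDPS minus the mean log2 CPM of the other 17 tested enzymes, by group. Left, all libraries lie along one line with ratios of 0.514 to 0.589. Right, TRA2B-OE lies at 2.76 and 2.96, above every other library.

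FDFT1, squalene synthase, and SQLE, squalene epoxidase, carry the route into sterols. FDFT1 was at 90.4 and 150 CPM in Control, 236, 275 and 208 in SRSF2-OE, 181 and 240 in SRSF4-OE, 261 and 402 in the libraries labelled SRSF6-OE, 165, 231 and 218 in SRSF9-OE, and 295 and 239 in TRA2B-OE. SQLE was at 103 and 189 CPM in Control, 305, 305 and 233 in SRSF2-OE, 229 and 281 in SRSF4-OE, 344 and 578 in the libraries labelled SRSF6-OE, 210, 265 and 254 in SRSF9-OE, and 340 and 275 in TRA2B-OE. Control was lowest for both genes and SRSF6 replicate 3 highest. The SQLE log2 fold change in the libraries labelled SRSF6-OE was 1.67 ± 0.28 (SE, edgeR adjusted p = 0.104, DESeq2 adjusted p = 2.9e-05). DESeq2 also called SQLE higher in those libraries than in SRSF9-OE (log2 difference 1.11 ± 0.30, adjusted p = 0.029), where it called 1.09% of all genes.

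LSS folds squalene epoxide into lanosterol. It was at 131 to 231 CPM over all 14 libraries, with log2 fold changes of 0.00 to 0.48. LSS was at 163 and 147 CPM in Control. It was above both in SRSF2-OE (174, 187 and 201) and in the libraries labelled SRSF6-OE (231 and 201). The other groups overlapped Control, and neither edgeR nor DESeq2 called LSS. CYP51A1, the lanosterol demethylase, was low, at 2.84 to 14.8 CPM. Its counts are uncertain, since its processed pseudogenes CYP51A1P2 and CYP51A1P1 drew 8151 and 3801 counts against 6579 for CYP51A1 itself over the 14 libraries, and since genes on the same strand overlap it. The sterol reductases TM7SF2 and LBR perform the same step. TM7SF2 was at 2.81 to 9.63 CPM and LBR at 39.8 to 83.8 CPM. In Control TM7SF2 stood at 1.11 and LBR at 10.3 CPM per kilobase of exon. TM7SF2 counts are uncertain too, since its exons overlap those of VPS51 on the same strand. VPS51 drew 72291 counts over the 14 libraries against 4948 for TM7SF2.

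MSMO1, the C4-methylsterol oxidase, was at 53.3 and 93.6 CPM in Control, 144, 178 and 171 in SRSF2-OE, 110 and 166 in SRSF4-OE, 114 and 270 in the libraries labelled SRSF6-OE, 106, 179 and 144 in SRSF9-OE, and 190 and 146 in TRA2B-OE. The groups did not overlap with Control, but the 2 libraries labelled SRSF6-OE were farther apart than the libraries of any other group. NSDHL, which works beside MSMO1, was listed at 0 and EBP, the sterol isomerase, at 1 count in total. Both genes are on the X chromosome, where 348 of 831 coding genes (41.9%) had 0 or 1 count over all libraries, against 14% of 18746 autosomal coding genes. Widely used X-linked genes such as PGK1 (1 count) and COX7B (0) were among them, so these entries do not show that NSDHL and EBP were unexpressed. HSD17B7, the ketoreductase of the same complex, was at 13.9 to 25.2 CPM with log2 fold changes of 0.02 to 0.41 and was not called.

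SC5D and DHCR7 complete the sterol ring. SC5D, the sterol desaturase, was at 33.3 and 42.5 CPM in Control, at 45.6 to 78.3 CPM in SRSF2-OE, SRSF4-OE, SRSF9-OE and TRA2B-OE, and at 61.3 and 171 in the libraries labelled SRSF6-OE. Its log2 fold change there was 1.52 and was 0.81 without SRSF6 replicate 3. DHCR7, which makes cholesterol from its immediate precursor, was at 17.4 and 63.7 CPM in Control, 140, 203 and 135 in SRSF2-OE, 91.0 and 129 in SRSF4-OE, 150 and 269 in the libraries labelled SRSF6-OE, 84.1, 135 and 144 in SRSF9-OE, and 147 and 128 in TRA2B-OE. Every overexpression library was above both Control libraries, which themselves lay far apart. The edgeR log2 fold changes of DHCR7 were 1.78 ± 0.42 in SRSF2-OE (adjusted p = 0.178), 1.60 ± 0.43 in SRSF4-OE (0.231), 2.49 ± 0.45 in the libraries labelled SRSF6-OE (0.104), 1.38 ± 0.41 in SRSF9-OE (0.870) and 2.01 ± 0.45 in TRA2B-OE (0.171). The value in the libraries labelled SRSF6-OE was 1.88 without Control replicate 1-2 and 3.37 without Control replicate 3.

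Beyond FDPS, RUSC1-AS1 and SQLE, the genes DESeq2 called in direct contrasts were LBR and SC5D. It called both lower in SRSF2-OE than in the libraries labelled SRSF6-OE, where 4.83% of all genes were called. These 2 calls among 26 genes do not set the cholesterol genes apart from that share. The edgeR log2 differences were -0.71 ± 0.17 for LBR (adjusted p = 0.132) and -1.25 ± 0.34 for SC5D (adjusted p = 0.163). SC5D stood at 61.3 and 171 CPM in the libraries labelled SRSF6-OE, the lower inside the 45.6 to 66.4 CPM of SRSF2-OE. In SRSF2-OE against SRSF9-OE DESeq2 called FDPS and RUSC1-AS1 higher in SRSF2-OE (1.44% of all genes called), with an edgeR log2 difference of 0.65 ± 0.16 for FDPS (adjusted p = 0.278). Over the 5 overexpression groups together, edgeR's F test called 0 cholesterol genes (0.0375% of all genes), with 9 of the 26 at an unadjusted p under 0.05, where 11% of all genes were. DESeq2 called 4 in the same test, FDPS, SQLE, LBR and RUSC1-AS1 (4.58% of all genes), and limma-voom 0 (0.0234%). In the 10 direct contrasts edgeR called 0 (0% to 0.0234% of all genes). Per contrast, 1 to 11 of the 26 cholesterol genes and 3.49% to 17.3% of all genes had an unadjusted p under 0.05. The fewest were in SRSF2-OE against SRSF4-OE (1 gene, 7.78% of all genes) and the most in SRSF9-OE against TRA2B-OE (11 genes, 5.89% of all genes). DESeq2 called 5 different genes over all contrasts and none in SRSF4-OE against SRSF2-OE (0.395% of all genes), SRSF6-OE as labelled (0.224%) or SRSF9-OE (0.0985%). limma-voom called FDPS and RUSC1-AS1 in SRSF9-OE against TRA2B-OE (0.0141% of all genes) and 0 cholesterol genes in the other 9 contrasts (0% to 0.0656%).

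INSIG1 is both a brake on SREBP processing and a target of SREBP. It was at 12.7 and 17.5 CPM in Control, 41.2, 61.0 and 45.7 in SRSF2-OE, 27.8 and 34.2 in SRSF4-OE, 47.1 and 106 in the libraries labelled SRSF6-OE, 20.9, 48.5 and 42.9 in SRSF9-OE, and 74.6 and 43.3 in TRA2B-OE. All 12 overexpression libraries were above Control. The edgeR log2 fold change was 1.58 ± 0.46 in SRSF2-OE, 2.30 ± 0.47 in the libraries labelled SRSF6-OE and 2.02 ± 0.47 in TRA2B-OE, with adjusted p of 0.222, 0.131 and 0.177, and DESeq2 called INSIG1 higher in these 3 groups.

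INSIG2, the other INSIG protein, stood lower than Control. INSIG2 was at 21.1 and 18.8 CPM in Control, 8.5, 7.81 and 12.1 in SRSF2-OE, 15.7 and 16.7 in SRSF4-OE, 15.7 and 18.9 in the libraries labelled SRSF6-OE, 16.3, 17.5 and 11 in SRSF9-OE, and 15.7 and 10 in TRA2B-OE. It was below both Control libraries in every overexpression library except SRSF6 replicate 3. The difference was largest in SRSF2-OE, at -1.02 ± 0.29 on the log2 scale (SE, edgeR adjusted p = 0.213, DESeq2 adjusted p = 0.053).

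SREBF2 encodes SREBP2 itself. Its level was 190 and 332 CPM in Control, 393, 458 and 355 in SRSF2-OE, 280 and 338 in SRSF4-OE, 296 and 390 in the libraries labelled SRSF6-OE, 343, 349 and 426 in SRSF9-OE, and 249 and 386 in TRA2B-OE. SRSF2-OE and SRSF9-OE did not overlap Control, and the other groups did. The log2 fold change ran from 0.29 to 0.43 and no tool called it. SCAP, the escort protein, was at 127 and 120 CPM in Control, 161, 133 and 128 in SRSF2-OE, 97.9 and 101 in SRSF4-OE, 90.6 and 85.0 in the libraries labelled SRSF6-OE, 110, 101 and 147 in SRSF9-OE, and 85.4 and 161 in TRA2B-OE. SCAP lay below Control in SRSF4-OE and in the libraries labelled SRSF6-OE. It lay above Control in SRSF2-OE, only just so in replicate 3, and on both sides elsewhere. The log2 differences ran from -0.49 to 0.09.

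MYLIP, also called IDOL, is a ubiquitin ligase induced by the oxysterol receptor LXR that removes lipoprotein receptors from the cell surface. It was low, at 4.17 and 5.95 CPM in Control, 3.90, 1.43 and 2.32 in SRSF2-OE, 2.45 and 3.75 in SRSF4-OE, 3.87 and 2.45 in the libraries labelled SRSF6-OE, 4.39, 4.36 and 2.30 in SRSF9-OE, and 2.87 and 5.42 in TRA2B-OE. SRSF2-OE, SRSF4-OE and the libraries labelled SRSF6-OE lay below both Control libraries, and the other 2 groups overlapped Control. The log2 difference in SRSF2-OE was -1.14 ± 0.49 (SE, edgeR adjusted p = 0.350). STARD4, which carries cholesterol between membranes, was at 41.6 to 94.6 CPM and SOAT1, which esterifies cholesterol for storage, at 51.8 to 107 CPM. Their log2 differences ran from 0.16 to 0.85 and from -0.54 to 0.06, and no tool called either.

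Per kilobase of exon, the most abundant genes in Control were PMVK at 35.1 CPM, SREBF2 at 34.6, SQLE at 33.9 and FDPS at 33.1. The least abundant tested genes were TM7SF2 at 1.11, CYP51A1 at 1.12 and MYLIP at 1.67. Exons of TM7SF2 and CYP51A1 overlap other genes on the same strand, so their low places are uncertain. In TRA2B-OE FDPS was at 139 and SQLE at 71.4 CPM per kilobase. Counting error was small beside the spread between libraries, since the least counted of the tested genes, MYLIP, still had 3272 counts over the 14 libraries.

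The enzymes as a group were lower in Control than in any overexpression library. The mean log2 CPM of the 18 tested enzymes was 5.01 and 5.54 in Control, 6.13, 6.14 and 6.13 in SRSF2-OE, 5.84 and 6.13 in SRSF4-OE, 6.13 and 6.52 in the libraries labelled SRSF6-OE, 5.71, 5.99 and 5.91 in SRSF9-OE, and 6.48 and 6.14 in TRA2B-OE. The pooled SD within groups was 0.21, and the 2 Control libraries were the farthest apart of any group's. Compared within 1 set of labels, the median log2 ratio of the 26 genes to the matching Control library was 0.59 in SRSF2-OE and 0.37 in SRSF9-OE (numeric labels only). For library ID and numeric labels in turn it was 0.76 and 0.57 in SRSF4-OE, 0.93 and 0.99 in the libraries labelled SRSF6-OE, and 1.16 and 0.48 in TRA2B-OE. The mean log2 CPM of 16 DNA replication genes was 3.49 and 4.32 in Control and above 4.32 in all overexpression libraries except SRSF2-OE replicate 2 (3.90), SRSF6 replicate 3 (4.30) and SRSF9-OE replicate 3 (3.86). Against Control, 16, 16, 15, 16 and 16 of these 16 genes had a log2 fold change above 0 in SRSF2-OE, SRSF4-OE, the libraries labelled SRSF6-OE, SRSF9-OE and TRA2B-OE. Their medians were 0.67, 0.96, 0.76, 0.42 and 0.95, beside 0.82, 0.70, 1.02, 0.48 and 0.93 for the 26 cholesterol genes. edgeR called 0 replication genes in any group, and DESeq2 called 1, 2, 3, 0 and 2, all higher. DESeq2 called 1.58%, 1.56%, 4.2%, 0.0563% and 1.44% of all genes higher in the same order. The part of replication gene levels in the cholesterol result was not tested. In bulk RNA, a change in the share of cells that express a gene and a change per cell cannot be told apart.

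**Figure D4:**
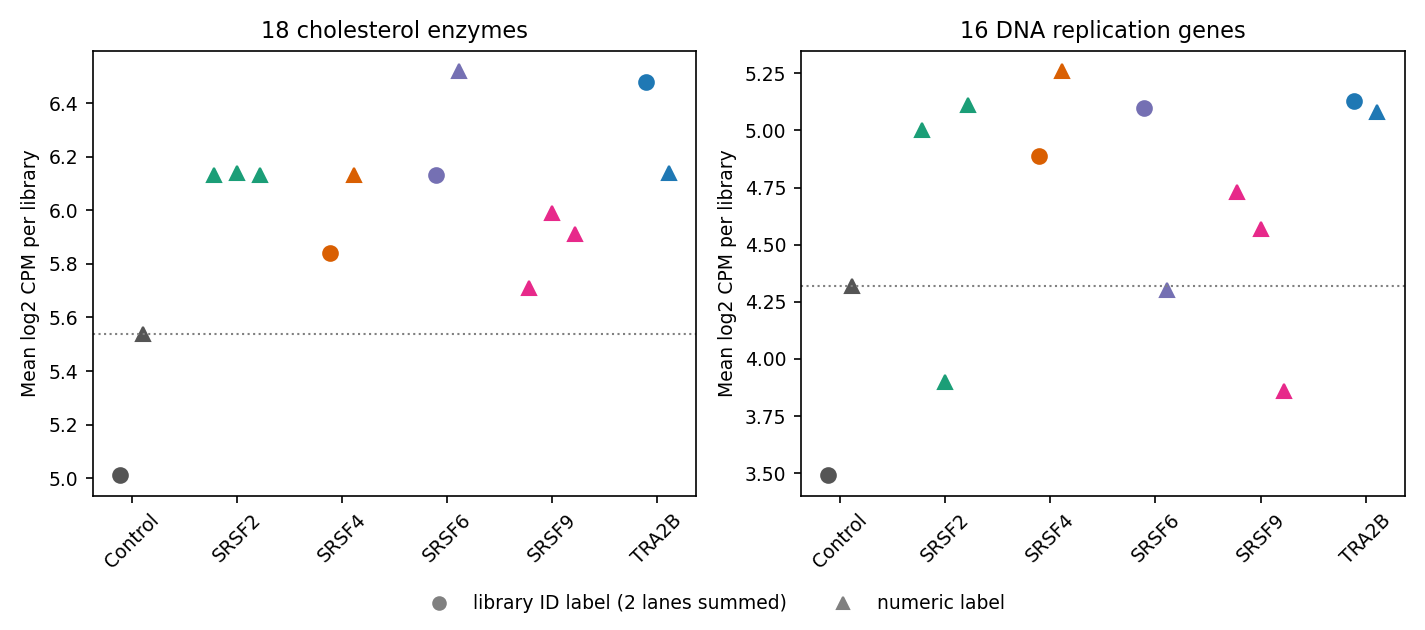
Mean log2 CPM per library of the 18 tested cholesterol enzymes (left) and of 16 DNA replication genes (right), by group. Circles are libraries labelled with a library ID, triangles those with a numeric label, and the dotted line is the higher Control library. All 12 overexpression libraries lie above the line for the enzymes, and 3 lie below it for replication.

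**Figure D5:**
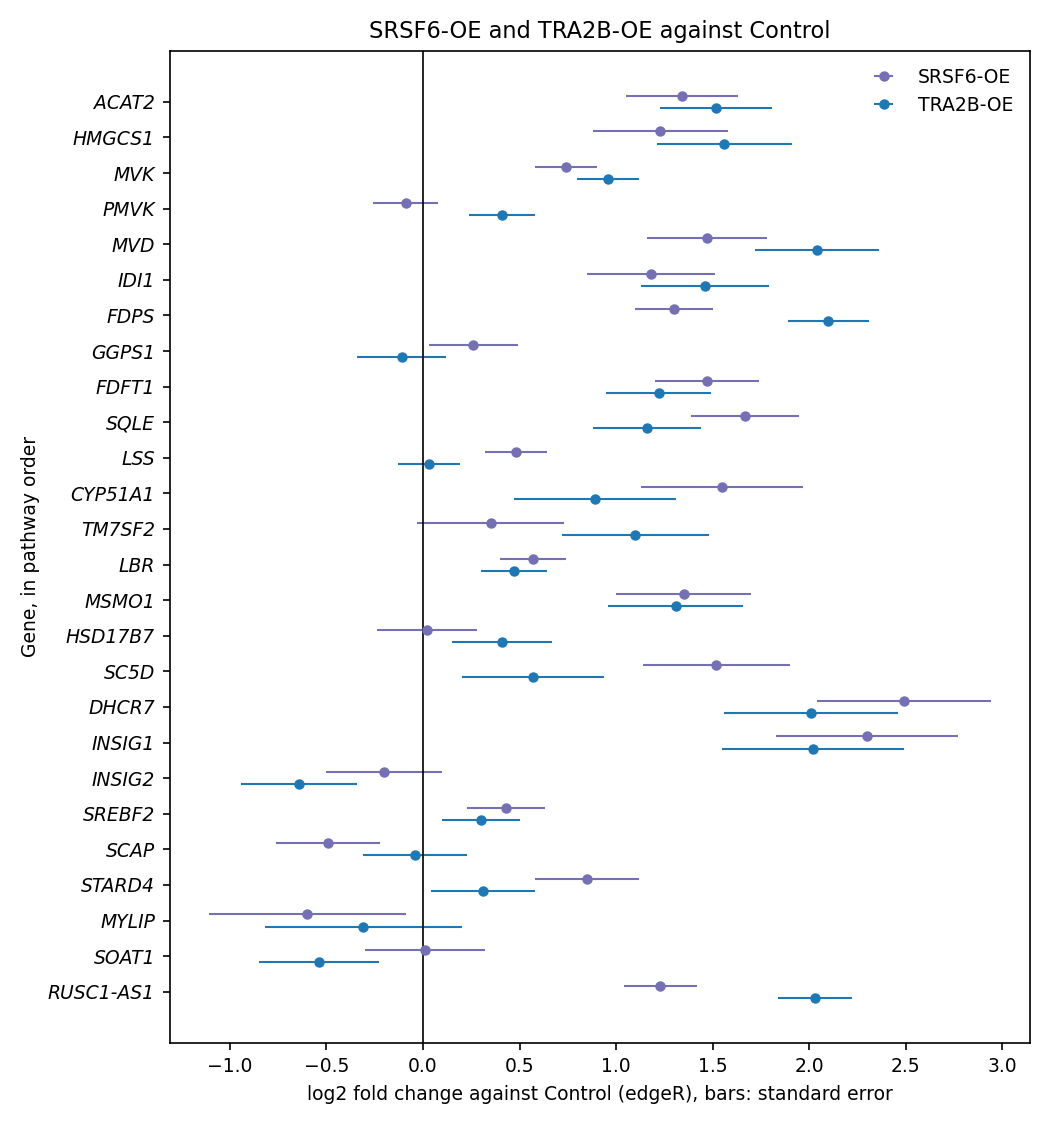
Fitted log2 fold change against Control (horizontal axis) with its standard error (bars, edgeR) for each tested gene in pathway order, in the libraries labelled SRSF6-OE and in TRA2B-OE. FDPS and RUSC1-AS1 lie farther right in TRA2B-OE (2.10 and 2.03) than in the libraries labelled SRSF6-OE (1.30 and 1.23), while SC5D and SQLE lie farther right in the latter.

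Genes that SREBP controls outside cholesterol synthesis stood higher as well. In a list of 11, 9 genes were tested, and ACLY and TMEM97 did not pass the filter on low counts. The cause was not tested, and their low counts do not show that they were unexpressed, as for NSDHL and EBP. Of the 9, 8 or 9 had a log2 fold change above 0 in each group. Medians were 1.08, 0.88, 1.08, 0.90 and 1.24 in SRSF2-OE, SRSF4-OE, the libraries labelled SRSF6-OE, SRSF9-OE and TRA2B-OE. edgeR called 0 of the 9 in any group. DESeq2 called 4, 4, 6, 0 and 4 higher and 0 lower. It called 1.58%, 1.56%, 4.2%, 0.0563% and 1.44% of all genes higher in the same order. FASN, fatty acid synthase, and the desaturases FADS1 and FADS2 were called by DESeq2 in the 4 groups other than SRSF9-OE. In TRA2B-OE the edgeR log2 fold change of FASN was 1.49 ± 0.24 (SE, edgeR adjusted p = 0.088, DESeq2 adjusted p = 9.0e-06). That of FADS2 was 2.87 ± 0.53 (edgeR adjusted p = 0.121, DESeq2 adjusted p = 2.1e-05).

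Side branches of the route, SREBP processing and sterol transport had medians nearer 0 than the cholesterol genes, and the LXR list had medians below 0. In the list of 11 genes for prenyl groups, dolichol and ubiquinone the median log2 fold change was 0.18, 0.19, 0.22, 0.03 and 0.15 in the same order of groups. PDSS1, which starts the ubiquinone side chain, was the gene DESeq2 called there, higher in SRSF2-OE, SRSF4-OE and TRA2B-OE. DESeq2 called 1.58%, 1.56% and 1.44% of all genes higher in these groups. The edgeR log2 fold changes of PDSS1 were 1.01 ± 0.22, 0.94 ± 0.22 and 1.25 ± 0.23 (edgeR adjusted p = 0.171, 0.224 and 0.112). Among 8 genes of SREBP processing the medians were -0.19, 0.00, -0.04, 0.00 and -0.12. DESeq2 called SREBF1, which encodes the paralogue SREBP1, higher in the libraries labelled SRSF6-OE, where it called 4.2% of all genes higher. The edgeR log2 fold change of SREBF1 there was 0.93 ± 0.24 (edgeR adjusted p = 0.154). Among 9 genes of lysosomal and intracellular sterol transport the medians were 0.01 to 0.17, and edgeR and DESeq2 called 0. Of 6 tested genes of LXR response and efflux, MYLIP among them, the medians were -0.83, -0.76, -0.09, -0.66 and -0.35. DESeq2 called ABCA1, the cholesterol exporter induced by LXR, lower in SRSF2-OE and SRSF4-OE. The share of all genes that DESeq2 called lower was not worked out. The edgeR log2 differences of ABCA1 were -3.28 ± 0.66 (edgeR adjusted p = 0.155) and -3.55 ± 0.73 (0.212). In the libraries labelled SRSF6-OE its log2 difference was 1.14 ± 0.66. edgeR called 0 genes in each of these lists.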

How the data were processed

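RNA libraries were made with a stranded mRNA kit and read as pairs, per the labels' protocols. The authors deposited raw counts per gene for 18 samples. Trimmomatic 0.36, STAR 2.5.1b, featureCounts, Subread and the build GRCh37 are named per the submitters' processing notes. The strand setting and whether reads or pairs were counted are not given in the sources used here, so overlapping genes can share reads. Gene names came from GENCODE by stable ID, without coordinates, for 55910 of 60252 rows.

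Samples that share a library ID and barcode were summed, which gave 14 libraries of 42959069 to 121601376 counts. The main test was edgeR 4.0.16 (R 4.3.3) with TMM, filterByExpr at a minimum count of 10, group and label set as terms, all 14 libraries, 7 residual degrees of freedom, and Benjamini-Hochberg adjustment over 21326 genes at 0.05. The label set says whether a sample's description is a library ID or a number. SE is the log2 fold change divided by the square root of F. DESeq2 1.42.0, limma-voom 3.58.1 and other settings were alternatives. Scripts were tested on simulated data. CPM per kilobase uses the union of exons.

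The genes and lists were chosen with earlier results of these data known. Values in every library are given for genes past adjusted p 0.05 in edgeR, or in DESeq2 in 2 or more comparisons with Control, for SREBF2, SCAP, INSIG1, INSIG2 and MYLIP, for RUSC1-AS1, and for genes with a log2 fold change below 0 in 4 or 5 comparisons.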

Additional observations from a re-analysis of the deposited data

How the results depend on the processing

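Alternatives changed how many cholesterol genes were called and also the size of the differences. Over all alternatives the log2 fold change of DHCR7 in SRSF2-OE ran from 1.30 to 2.82. That of HMGCS1 in TRA2B-OE ran from 0.71 to 2.20. In the order SRSF2-OE, SRSF4-OE, SRSF6-OE (as labelled), SRSF9-OE and TRA2B-OE against Control, edgeR called 0, 0, 0, 0 and 2. DESeq2 called 7, 5, 14, 0 and 12, with 4 in the F test over the overexpression groups and 5 in the 10 direct contrasts. limma-voom called 2 in SRSF6-OE, 4 in TRA2B-OE and 2 in the direct contrasts. With the 18 samples kept separate, which counts lanes of 1 library as replicates, the calls were 12, 14, 18, 0 and 16, with 5 in the F test and 4 in the direct contrasts. TRA2B-OE lost both calls with no label set term, with numeric labels only (median log2 fold change 0.46, 1 gene in the direct contrasts) and with only the 2 groups compared, which left 0 called there but 13 in SRSF4-OE and 2 in SRSF6-OE. With no filter on low counts 2 genes were called in the direct contrasts, and with both doubted libraries left out 2 were called in SRSF4-OE and 3 in SRSF6-OE. The cause of these changes was not tested. The share of all genes called was not worked out for the separate samples, with or without the replicate block. Nor was it for only the 2 groups compared or for other alternatives without a share given above. Those counts therefore do not set cholesterol genes apart from other genes. FDPS and RUSC1-AS1 in TRA2B-OE were past the threshold in 18 of 26 alternatives, with log2 fold changes of 1.76 to 2.41 and 1.77 to 2.27.

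Whether replicate numbers pair the samples could not be decided. Of 31 pairs with the same number, 15 had deviations correlated above 0.1, over a range of -0.51 to 0.54. Between groups of 2 libraries the deviations mirror each other, so both pairs give the same value. In those groups the replicates also differ in label set. With the replicate block TRA2B-OE had 0 calls (FDPS 2.09, adjusted p = 0.1), and SCAP in SRSF9-OE turned to 0.01. With 18 separate samples and the replicate block the calls were 16, 11, 17, 1 and 15, with 3 in the F test and 5 in the direct contrasts, and the medians of SRSF2-OE and SRSF9-OE were 1.05 and 0.71.

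Leaving out each library in turn, the lone library of a group then being assumed to vary like the others, the calls ranged from 0 to 0 in SRSF2-OE, SRSF4-OE, SRSF9-OE and the F test, from 0 to 8 in SRSF6-OE, from 0 to 6 in TRA2B-OE and from 0 to 2 in the direct contrasts. Median log2 fold changes ranged from 0.62 to 1.06, 0.54 to 0.84, 0.80 to 1.23, 0.38 to 0.56 and 0.55 to 1.19 in the order of groups above.

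Reversals concerned genes with differences near 0. GGPS1 turned to 0.07 in SRSF2-OE and 0.19 in SRSF9-OE with only the 2 groups compared, and with numeric labels only to 0.08 in SRSF2-OE, 0.07 in SRSF4-OE, 0.20 in SRSF9-OE and 0.04 in TRA2B-OE, where INSIG2 in SRSF6-OE turned to 0.02 and SCAP in TRA2B-OE to 0.39. Leaving out 1 library, GGPS1 ranged from -0.53 to 0.09, -0.51 to 0.14, -0.11 to 0.61, -0.42 to 0.20 and -0.39 to 0.24 in the 5 groups, SCAP from -0.13 to 0.23 in SRSF2-OE and -0.56 to 0.42 in TRA2B-OE, INSIG2 from -0.47 to 0.05 in SRSF6-OE, and MYLIP from -0.73 to 0.05 in TRA2B-OE.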
